A study of Mus musculus with 6 samples.

Results

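The 10 transcription factors described here, Pax5, Ebf1, Foxo1, Ikzf1, Ikzf3, Spib, Irf4, Irf8, Bach2 and Bcl6, direct the development of B cells, and they were chosen by name from 19938 genes measured on the arrays. Each was read by 1 probe set assigned to that gene alone, which was also the brightest single-gene probe set by the rule used for all genes. The study's 6 arrays, 3 in each of 2 groups, measured total RNA of mouse pre-B cells (strain 129P2/OlaHsd) transformed with BCR-ABL1, the fusion kinase of Philadelphia chromosome-positive acute lymphoblastic leukaemia. The first group carried PMIP-CRE-ERT2, a construct whose Cre recombinase is held inactive by a modified hormone-binding domain until the tamoxifen metabolite 4-hydroxytamoxifen is added. The second carried PMIP-ERT2, with the hormone-binding domain and no recombinase. All 6 samples had the genotype Ptpn6 +/fl (1 floxed and 1 unfloxed allele of the gene for the tyrosine phosphatase SHP-1), were selected with puromycin and received 0.5 micromolar of the metabolite for 2 days. The series asks what Ptpn6 does in these cells. Nothing in the labels tells whether replicates were separate cultures or animals, and every p-value therefore reflects the spread of these samples alone, which may be technical. Cells with Cre and no floxed allele are not among the samples, so an effect of Cre itself and an effect of the floxed allele cannot be told apart.

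EBF1 and PAX5 commit a progenitor to the B lineage by switching on genes of the pre-B cell receptor and switching off genes of other lineages. IKAROS and AIOLOS (the products of Ikzf1 and Ikzf3), IRF4, IRF8 and the ETS factor SPIB act at the large to small pre-B cell transition, and FOXO1, which AKT signalling keeps out of the nucleus, drives the recombination activating genes. BCL6 and BACH2 are repressors with a BTB domain that act with opposite outcomes at the pre-B cell receptor checkpoint, BCL6 for survival and BACH2 for negative selection. Lesions of IKZF1 and PAX5 are frequent in the human disease that these cells model.

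On the 6 arrays, 1 of the 10 factors differed between the groups and 9 did not pass the test, each with an unadjusted p of 0.106 or more in limma. Spib, the ETS factor most closely related to PU.1 in B cells, was 1.53-fold higher in CRE-ERT2 than in ERT2 arrays. For the other 9, the ratio between groups lay close to 1, and their 95% confidence intervals together spanned ratios from 0.820 to 1.20. One passing gene of 10 is read against a background of 4.58% of all genes tested (2.30% higher and 2.28% lower in CRE-ERT2 arrays) at an adjusted p under 0.05 with limma, a linear model fitted to all genes at once.

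Promoter sequence is shown for Spib, the factor that rose, and for 3 factors that did not pass, Irf8 as its partner and Bach2 and Bcl6 as the repressors. The windows come from RefSeq on build GRCm38.p6 and run from 250 bases before to 50 bases after an annotated start, 5′ to 3′ on the gene's strand. They are chr7:44532022-44532321 (minus strand) for Spib, chr8:120736108-120736407 (plus) for the first of 2 Irf8 starts, chr4:32417185-32417484 (plus) for Bach2 and chr16:23981234-23981533 (minus) for the second of 2 Bcl6 starts.
Spib: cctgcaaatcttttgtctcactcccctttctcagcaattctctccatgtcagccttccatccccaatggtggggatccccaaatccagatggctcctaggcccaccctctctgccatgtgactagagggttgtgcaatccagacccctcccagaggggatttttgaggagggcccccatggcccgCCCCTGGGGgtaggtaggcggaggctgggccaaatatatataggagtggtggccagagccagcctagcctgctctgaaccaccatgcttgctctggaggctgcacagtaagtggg
Irf8: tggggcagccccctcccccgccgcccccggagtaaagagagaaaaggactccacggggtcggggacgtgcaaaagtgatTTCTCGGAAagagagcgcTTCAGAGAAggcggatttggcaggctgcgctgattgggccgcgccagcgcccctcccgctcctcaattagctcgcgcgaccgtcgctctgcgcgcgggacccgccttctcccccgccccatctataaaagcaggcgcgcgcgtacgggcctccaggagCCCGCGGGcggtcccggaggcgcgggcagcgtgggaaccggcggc
Bach2: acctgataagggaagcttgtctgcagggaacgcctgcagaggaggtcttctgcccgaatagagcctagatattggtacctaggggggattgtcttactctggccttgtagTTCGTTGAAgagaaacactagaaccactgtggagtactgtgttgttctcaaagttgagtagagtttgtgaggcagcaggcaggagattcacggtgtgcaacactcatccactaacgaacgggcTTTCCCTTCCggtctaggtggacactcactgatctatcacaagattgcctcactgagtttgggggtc
Bcl6: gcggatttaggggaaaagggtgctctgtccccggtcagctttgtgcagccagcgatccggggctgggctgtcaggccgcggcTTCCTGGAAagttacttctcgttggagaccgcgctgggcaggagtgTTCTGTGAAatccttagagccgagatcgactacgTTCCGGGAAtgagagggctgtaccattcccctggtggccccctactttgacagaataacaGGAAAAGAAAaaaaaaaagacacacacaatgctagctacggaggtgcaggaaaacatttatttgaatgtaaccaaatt
Capitals mark letters that match, on either strand, 1 of 7 motifs found in under 15% of windows, and a match is a description of the letters only. Spib held the EBF core CCCNNGGG in 2 overlapping registers, at positions -65 and -64 with the start base as 0; 13.7% of 32851 mouse windows held it. The palindromic STAT pattern TTCNNNGAA, present in 8.3% of windows, occurred 2 times in Irf8, which also held 1 EBF core, and 1 time in Bach2.
The Bcl6 window held TTCNNNGAA 3 times, and the first of these also fitted the narrower BCL6 pattern TTCCTNGAA, which 1.59% of windows held. The ETS-IRF composite pattern (GGAA, 2 free bases and GAAA), on which PU.1 or SPIB binds together with IRF4 or IRF8, stood 1 time in Bach2 and 1 time in this Bcl6 window, against 2.72% of all windows, and each match contains the ETS core GGAA. The windows of Irf8 and Bcl6 were chosen after the matches were seen, as those with more matches in capitals. The other Bcl6 window (chr16:23988803-23989102, minus strand) held TTCNNNGAA 1 time and neither the composite nor the BCL6 pattern, and the other Irf8 window (chr8:120738389-120738688, plus strand) held neither TTCNNNGAA nor CCCNNGGG. The ETS core GGAA was in 96% of windows and the E-box CANNTG in 72.3%, so they are not in capitals. The other motifs searched were the Ikaros core TGGGAA (25.6% of windows), the interferon response core (GAAA, 2 free bases and GAAA, 3.44%), the FOXO pattern GTAAACA (3.65%) and the BACH and AP-1 pattern TGANTCA (7.81%). Of the 10 factors, 9 had a window, 13 windows in all, and neither GTAAACA nor TGANTCA was in those letters.

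Spib was the factor that passed the test. Its log2 expression was 11.82, 11.74 and 11.69 in the CRE-ERT2 arrays (replicates 1 to 3), against 10.84, 11.31 and 11.25 in the ERT2 arrays. All 3 CRE-ERT2 arrays lay above all 3 ERT2 arrays, with a gap of 0.38, and ERT2 replicate 1 was the lowest of the 6. The means were 11.75 ± 0.06 and 11.13 ± 0.26 in CRE-ERT2 and ERT2 arrays (SD, n = 3 each), and the change was 0.62 (SE 0.11, 95% confidence interval 0.38 to 0.85). This is a ratio of 1.53 (1.30 to 1.81), with a limma adjusted p of 0.00521. Spib stood at rank 349 of 19938 genes by p. Its spread within groups was wide, with a pooled SD of 0.19 that was larger than that of 95.1% of genes, and nearly all of it lay in the ERT2 group, whose arrays ranged over 0.47 against 0.13 for the CRE-ERT2 group. Without ERT2 replicate 1 the change was 0.47, a ratio of 1.39, and still passed (adjusted p = 0.0109). When all 35556 probe sets were tested together, the same change of 0.62 had an adjusted p of 0.119 and did not pass. In total RNA from a culture, more cells with Spib RNA and more Spib RNA per cell cannot be told apart.

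**Figure D1:**
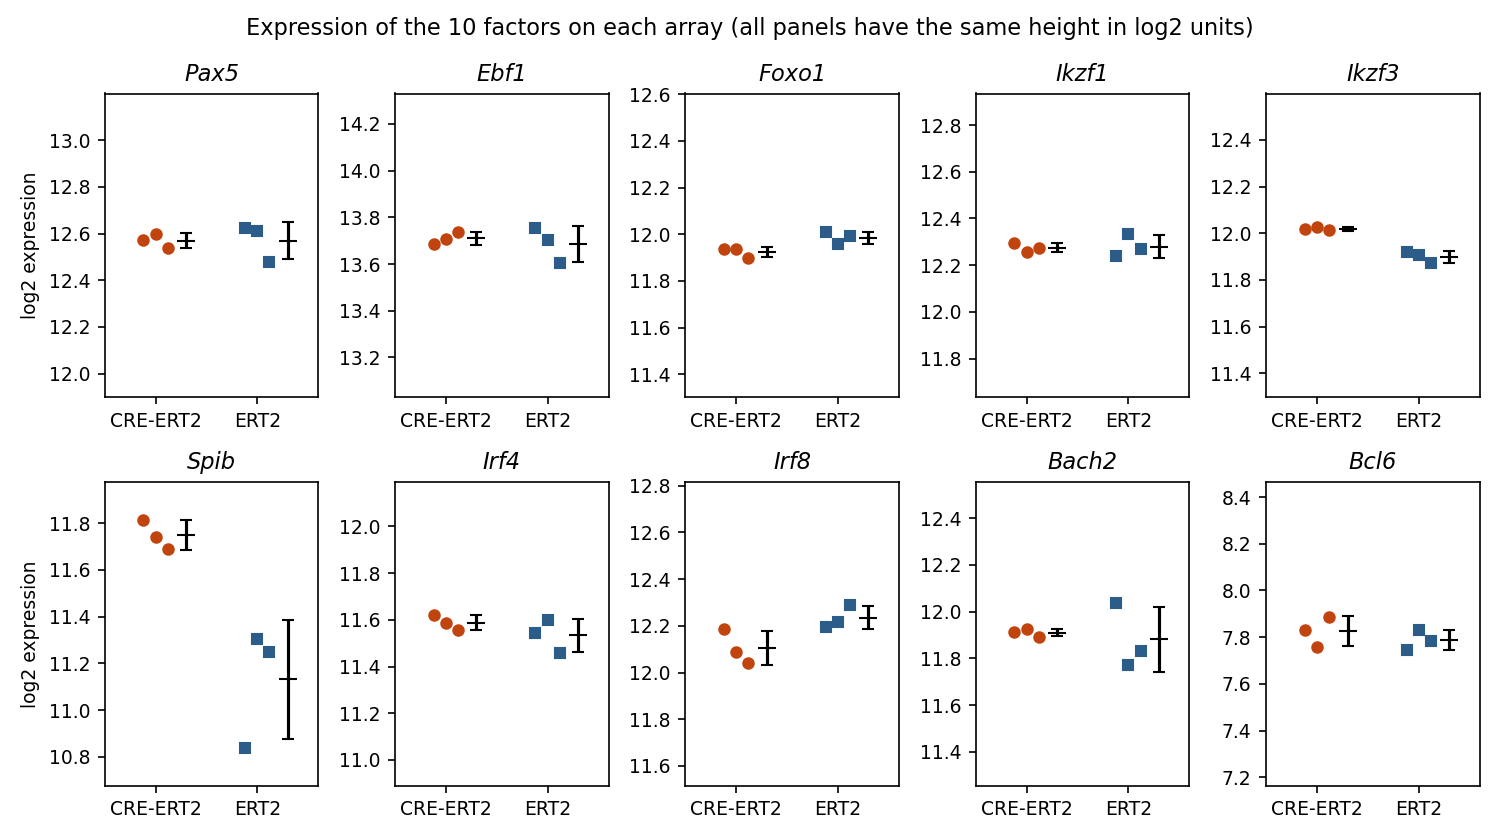
Log2 expression (vertical axis, a range of equal height in every panel) of the 10 factors on the 3 CRE-ERT2 arrays (circles) and the 3 ERT2 arrays (squares), with the mean and SD of each group as a bar beside the points. Spib is the panel in which the groups stand apart by 0.38, and its lowest point, 10.84, is ERT2 replicate 1.

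The profile of Spib over the arrays was shared closely by genes outside the 10 factors. After the mean of each gene over the 6 arrays was taken off, Grn, which encodes the growth factor precursor progranulin, differed from Spib by a root mean square of only 0.0228 on the log2 scale. Grn read 10.96, 10.89 and 10.82 in CRE-ERT2 arrays, against 10.02, 10.49 and 10.44 in ERT2 arrays, so ERT2 replicate 1 was also its lowest array. The next most similar gene, Cyb5a, which encodes cytochrome b5, differed by 0.0452 and read 12.41, 12.37 and 12.37 in CRE-ERT2 arrays, against 11.54, 11.90 and 11.84 in ERT2 arrays. The changes were 0.57 for Grn (adjusted p = 0.00849) and 0.63 for Cyb5a (adjusted p = 0.00144) with limma. Both were found by searching all genes for the smallest difference from Spib, so their likeness is a description of these 6 arrays.

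**Figure D2:**
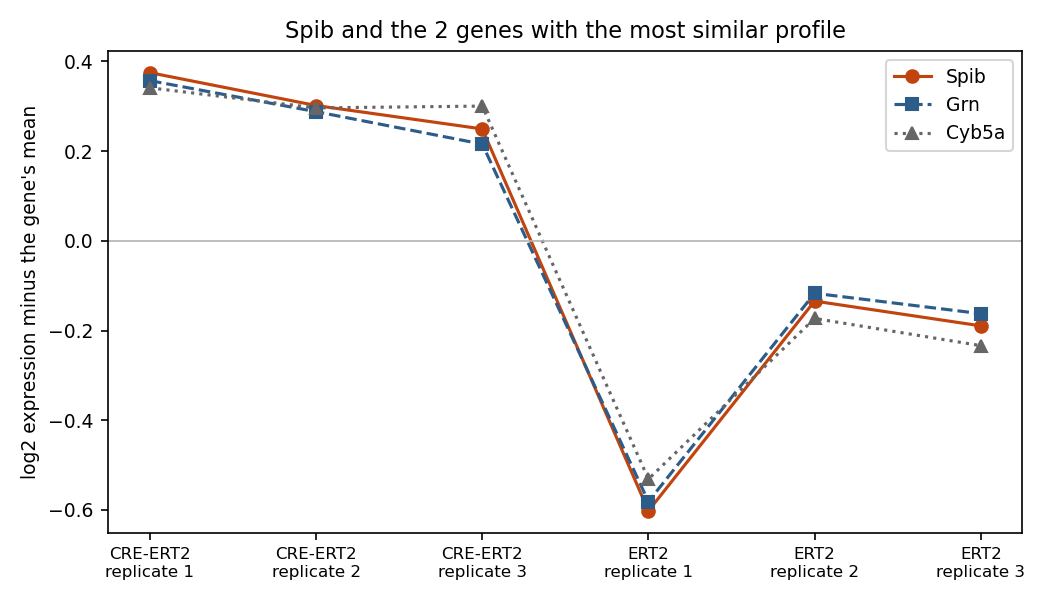
Log2 expression minus the mean of the gene over the 6 arrays (vertical axis) for Spib, Grn and Cyb5a on each array (horizontal axis, CRE-ERT2 replicates and then ERT2 replicates); lines only join the points of a gene. All 3 genes are above their mean on every CRE-ERT2 array and lowest on ERT2 replicate 1.

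The partners of SPIB on composite elements did not pass. Irf4, which with Irf8 ends pre-B cell cycling and opens the light chain genes, read 11.62, 11.58 and 11.56 in CRE-ERT2 arrays, against 11.54, 11.60 and 11.46 in ERT2 arrays. The groups overlapped, and the ratio was 1.04 (0.931 to 1.16, adjusted p = 0.821). Irf8, which is also a myeloid factor, read 12.19, 12.09 and 12.04 in CRE-ERT2 arrays, against 12.19, 12.22 and 12.29 in ERT2 arrays. All 3 CRE-ERT2 values were below all 3 ERT2 values, but by a gap of only 0.0078, and the ratio was 0.915 (0.820 to 1.02, adjusted p = 0.442). The direction of the Irf8 difference was the opposite of that of Spib.

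The commitment factors Pax5 and Ebf1 did not pass. Pax5 read 12.57, 12.60 and 12.54 in CRE-ERT2 arrays, against 12.62, 12.61 and 12.48 in ERT2 arrays, with a mean of 12.57 in both groups. The interval of the ratio ran from 0.896 to 1.12 (adjusted p = 0.9999). Ebf1, which acts upstream of and together with Pax5, read 13.68, 13.71 and 13.74 in CRE-ERT2 arrays, against 13.76, 13.70 and 13.60 in ERT2 arrays. The CRE-ERT2 values lay inside the ERT2 range, and the ratio was 1.02 (0.911 to 1.13, adjusted p = 0.942). A change of either gene larger than 1.13-fold up or about as much down is outside these intervals. Like the p-values, the intervals reflect the spread of these samples alone, which may be technical.

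Foxo1 and the Ikaros family genes did not pass either. Foxo1 read 11.94, 11.94 and 11.90 in CRE-ERT2 arrays, against 12.01, 11.96 and 11.99 in ERT2 arrays. Its groups did not overlap, by a gap of 0.0199, and the ratio was 0.958 (0.865 to 1.06, adjusted p = 0.769). Ikzf1, the gene of the tumour suppressor IKAROS, read 12.29, 12.25 and 12.27 in CRE-ERT2 arrays, against 12.24, 12.33 and 12.27 in ERT2 arrays, and the groups overlapped (ratio 0.996, 0.897 to 1.11, adjusted p = 0.986). Ikzf3, whose product AIOLOS follows pre-B cell receptor signalling, read 12.02, 12.03 and 12.01 in CRE-ERT2 arrays, against 11.92, 11.91 and 11.87 in ERT2 arrays. Its CRE-ERT2 arrays were all higher, by a gap of 0.09, and agreed within 0.0136. The ratio was 1.09 (0.980 to 1.20) and its adjusted p of 0.442 did not pass. Limma draws the SD of a gene towards that of other genes, so the SE of Ikzf3 was 0.07 although its own pooled SD of 0.0189 was smaller than that of all but 0.361% of genes.

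Neither of the BTB repressors passed. Bach2 read 11.91, 11.92 and 11.89 in CRE-ERT2 arrays, against 12.04, 11.77 and 11.83 in ERT2 arrays. The ERT2 arrays lay on both sides of the CRE-ERT2 arrays, and ERT2 replicate 1 was the highest for Bach2 where it was the lowest for Spib. The ratio was 1.02 (0.903 to 1.15, adjusted p = 0.934). Bcl6 read 7.83, 7.76 and 7.89 in CRE-ERT2 arrays, against 7.74, 7.83 and 7.79 in ERT2 arrays, with overlapping groups and a ratio of 1.03 (0.922 to 1.14, adjusted p = 0.888). These Bcl6 values lie beside the medians of the arrays, 7.90 to 7.98 over all probe sets. Detection calls were not used here, so how far Bcl6 stood above background is unknown, and a change near background would be compressed.

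Across the 10 factors, 4 had groups that did not overlap, Spib and Ikzf3 with all CRE-ERT2 arrays above and Foxo1 and Irf8 with all below, where 22.5% of all genes had such groups (6.92% above and 15.5% below). For Ikzf3, Foxo1 and Irf8 the gap between groups was under 0.1. The median change of the 10 was 0.03, beside a median of -0.03 over all genes. Replicates of the factors lay close together: the median pooled SD was 0.06, against 0.10 over all genes, and 8 of 10 had an SD below that median, Spib and Bach2 being above it. The factors other than Bcl6 were far brighter than the array medians, and their SD was not compared with that of equally bright genes.

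**Figure D3:**
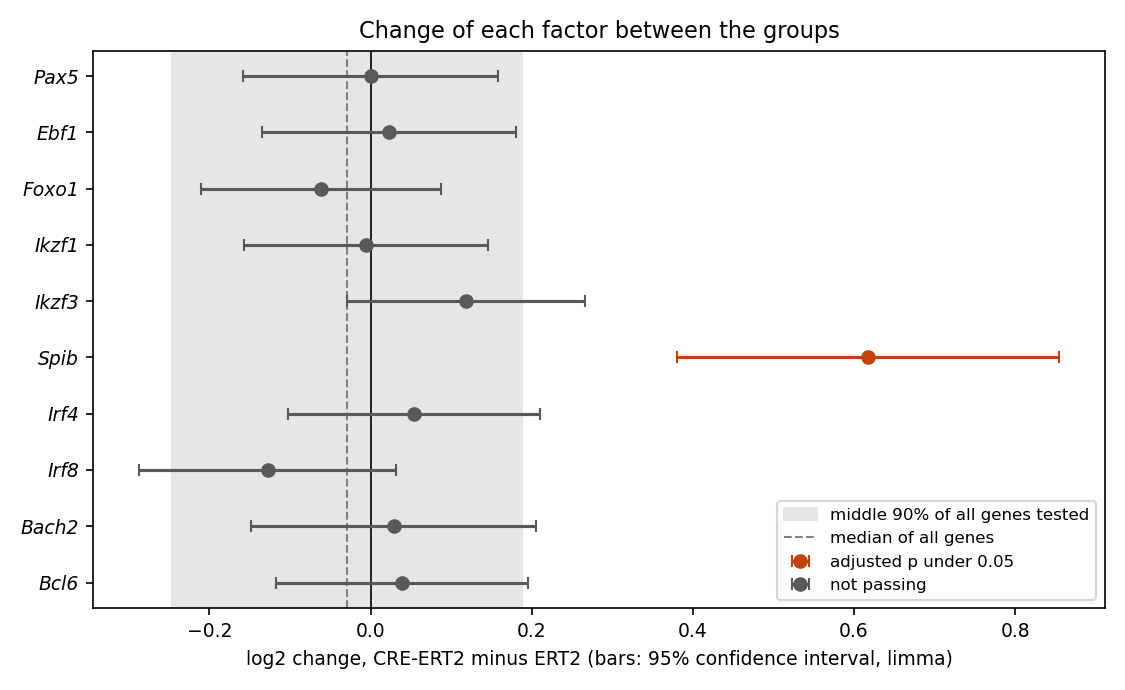
Log2 change of each factor, CRE-ERT2 minus ERT2 (horizontal axis), as a point with its 95% confidence interval from limma, over the range that holds the middle 90% of all genes (grey, -0.25 to 0.19) and their median (dashed). The interval of Spib, 0.38 to 0.85, is the only one of the 10 that leaves out 0.

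Ptpn6, the gene with the floxed allele, read 11.36, 11.25 and 11.20 in CRE-ERT2 arrays, against 11.25, 11.39 and 11.39 in ERT2 arrays, with a ratio of 0.952 (0.848 to 1.07, adjusted p = 0.759). Whether its probe set lies in the floxed part is not known here, so the groups are called by their labels. Pre-B cell markers were bright on average: the mean log2 value of 11 measured markers was 11.97 to 12.04 in CRE-ERT2 arrays and 11.89 to 11.97 in ERT2 arrays. Rag2 was dimmer, with means of 8.15 and 8.68 in CRE-ERT2 and ERT2 arrays. Among 35 measured markers of T, natural killer, myeloid and erythroid or megakaryocyte cells, 0 passed in limma, beside 4.58% of all genes. Of these markers, 3 had an unadjusted p under 0.05. Klra8 had the largest p of the 3 (0.0406 in limma) and stood at rank 2948 of 19938 genes by p, so many genes reached that level. The mean log2 values per list of these markers were 6.30 to 7.59 in CRE-ERT2 arrays and 6.29 to 7.57 in ERT2 arrays. Single markers stood above their list's mean, such as the myeloid marker Lyz2, at 8.83 and 9.05 in CRE-ERT2 and ERT2 arrays. The megakaryocyte marker Itga2b was at 8.15 and 8.25. Klra8, a natural killer cell marker at 5.47 and 5.69 in CRE-ERT2 and ERT2 arrays, passed only without ERT2 replicate 3 (adjusted p = 0.0415). Of the pre-B cell markers, Dntt, the terminal transferase, rose by 0.48 (adjusted p = 0.00369) and Rag2 fell by 0.53 (adjusted p = 0.00426), and the other 9 did not pass. With all probe sets tested both lost their call, at adjusted p = 0.0640 for Dntt and 0.0911 for Rag2. The part of these marker changes in the Spib result was not tested.

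Among other factors of the B lineage, 2 of the 3 that passed were inhibitors of the E proteins, Id2 and Id3, which went opposite ways. The median change of 21 measured genes was 0.02, with 1 that rose, 2 that fell and 18 that did not pass. That is 14.3% passing, beside 4.58% of all genes. This list and those below were chosen with earlier results of these data known, so their counts are no test. Id2, which binds E proteins and blocks their activity, read 11.30, 11.01 and 11.07 in CRE-ERT2 arrays, against 10.28, 10.33 and 10.17 in ERT2 arrays, and rose 1.83-fold (adjusted p = 6.59e-05). Its relative Id3 fell, at 9.71, 9.56 and 9.54 in CRE-ERT2 arrays, against 9.77, 10.17 and 10.10 in ERT2 arrays (change -0.41, adjusted p = 0.0401). Pou2f2, the gene of the octamer factor OCT2, fell by 0.33 (adjusted p = 0.0226). Id2 passed whichever array was left out. Id3 and Pou2f2 each lost their call in 5 of 6 such fits (Id3 passed without ERT2 replicate 1, Pou2f2 without ERT2 replicate 3), with adjusted p up to 0.196 without CRE-ERT2 replicate 3 for Id3 and up to 0.128 without the same array for Pou2f2. The E protein gene Tcf3 (-0.06), the PU.1 gene Spi1 (0.15) and the coactivator gene Pou2af1 (0.16) did not pass.

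Among relatives of the 10 factors, the genes that passed were 3 of the IRF genes, Irf7, Irf9 and Irf1, while the IRF genes Irf2 (-0.01), Irf3 (0.06) and Irf5 (0.14) did not pass. The 21 measured genes had a median change of -0.00292, and 3 rose, 0 fell and 18 did not pass (14.3% passing, beside 4.58% of all genes). Irf7, which amplifies interferon production, read 8.42, 8.25 and 8.07 in CRE-ERT2 arrays, against 7.68, 7.66 and 7.80 in ERT2 arrays, and rose by 0.53 (adjusted p = 0.00451). Irf9, the DNA-binding part of the interferon-activated ISGF3 complex, rose by 0.40 (adjusted p = 0.0163), and Irf1 rose by 0.36 (adjusted p = 0.0168). The Irf9 call was lost without CRE-ERT2 replicate 1 (adjusted p = 0.0765) or ERT2 replicate 1 (0.0804), and the Irf1 call without CRE-ERT2 replicate 1 (0.0730) or with the mean of its probe sets (0.0705), its second one having changed by 0.15. Irf7 passed whichever array was left out, but with all probe sets tested none of the 3 passed (adjusted p = 0.0938 for Irf7, 0.139 for Irf9 and 0.116 for Irf1). The relatives of Spib, Spi1 (0.15) and Spic (0.08), did not pass, nor did Ikzf2 (-0.04), Ikzf4 (0.19), Ikzf5 (-0.11), Foxo3 (0.18), Foxo4 (-0.07), Bach1 (-0.02) or Bcl6b (-0.10).

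Genes that the factors are known to control were counted next, beside the 4.58% of all genes that passed. All lists here were drawn up with earlier results of these data known. A count above that share is therefore a description of the list and no test of the targets. Genes activated by PAX5 and EBF1 had a median change of 0.11 over 16 measured; 2 rose, 1 fell (Id3, above) and 13 did not pass. Cd22, an inhibitory receptor of B cells, rose by 0.37 and Bst1, a surface enzyme also known as CD157, by 0.31 (adjusted p = 0.0271 for each). Both are weakly held: Bst1 lost its call without any 1 of the 6 arrays (adjusted p = 0.0519 to 0.119), and Cd22 without CRE-ERT2 replicate 1 (0.101), CRE-ERT2 replicate 3 (0.0590) or ERT2 replicate 1 (0.122). The receptor and surrogate light chain genes did not pass: Cd79a changed by 0.18, Cd79b by 0.09, Igll1 by 0.06, and Vpreb1 and Vpreb2, which are near-identical copies whose probe sets may read both, by 0.13 and 0.14.

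Genes repressed by PAX5 had a median change of 0.11 over 12 measured, and 4 rose, 0 fell and 8 did not pass, while Pax5 itself did not pass. Emb, a cell adhesion glycoprotein, read 10.33, 10.07 and 10.19 in CRE-ERT2 arrays, against 9.16, 9.33 and 8.98 in ERT2 arrays, and rose 2.06-fold (adjusted p = 3.80e-05). Notch1, the receptor that directs T lineage choice, rose by 0.59 (adjusted p = 0.000551) and Flt3, a receptor kinase of early progenitors, by 0.53 (adjusted p = 0.00115). The chemokine gene Ccl3 rose by 0.46 (adjusted p = 0.0304). Its means of 7.39 and 6.93 in CRE-ERT2 and ERT2 arrays lay below the array medians of 7.90 to 7.98, so how far Ccl3 stood above background is unknown. Emb, Notch1 and Flt3 passed whichever array was left out, and Ccl3 lost its call without CRE-ERT2 replicate 1 (adjusted p = 0.0865) or 3 (0.0599) and without ERT2 replicate 1 (0.137) or 3 (0.0591). The macrophage receptor gene Csf1r (0.04) and Prdm1, the gene of the plasma cell factor BLIMP1 (-0.00347), did not pass.

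Genes repressed by BCL6 had a median change of 0.07 over 16 measured, and 5 rose, 2 fell and 9 did not pass, while Bcl6 itself did not pass. Cd80, a costimulatory ligand, read 8.33, 8.29 and 8.36 in CRE-ERT2 arrays. In ERT2 arrays it read 7.09, 6.995 and 7.22, below the array medians of 7.90 to 7.98. It rose 2.34-fold (adjusted p = 1.53e-06), with a change of 0.42 on its second probe set. With all probe sets tested in limma, this second one did not pass (adjusted p = 0.206) and the first did (0.00232). The survival gene Bcl2 read 12.81, 12.71 and 12.82 in CRE-ERT2 arrays, against 12.01, 11.97 and 11.98 in ERT2 arrays, and rose 1.73-fold (adjusted p = 2.51e-05). Id2, Irf7 and Ccl3, given above, were the other 3 that rose. Atr and Myc fell, by 0.40 and 0.35 (adjusted p = 0.0287 and 0.0304), and each lost its call in 4 of 6 fits that left out an array. Atr passed only without ERT2 replicate 2 or 3 and Myc only without CRE-ERT2 replicate 1 or ERT2 replicate 3, and the adjusted p was highest without CRE-ERT2 replicate 3, at 0.133 for Atr and 0.176 for Myc. Of 10 genes repressed by BACH2, 0 passed in limma, beside 4.58% of all genes, and 0 had an unadjusted p under 0.05. In a list of 10, a count of 0 cannot be told apart from that share. The heme oxygenase gene Hmox1 (-0.17, adjusted p = 0.410) and Gclm, a glutathione synthesis gene (-0.12, adjusted p = 0.543), had the smallest p.

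**Figure D4:**
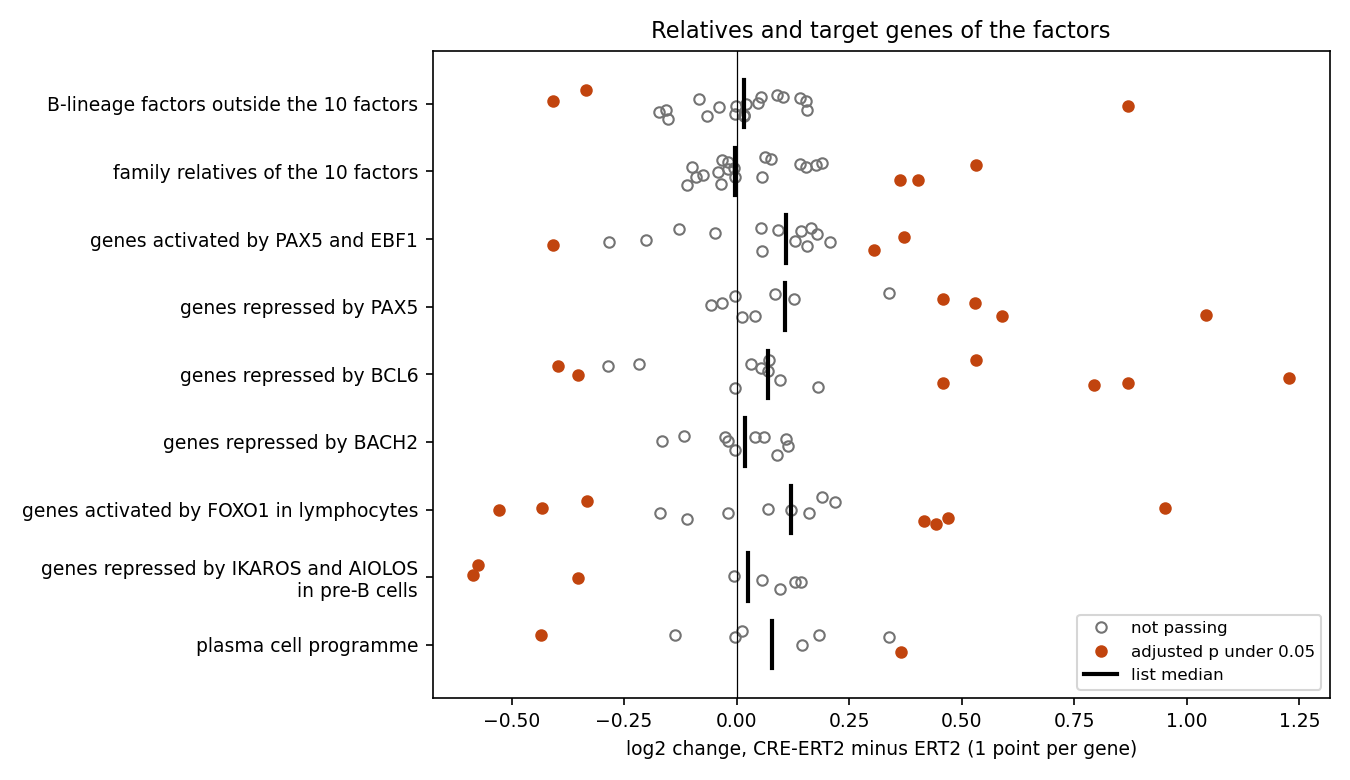
Log2 change, CRE-ERT2 minus ERT2 (horizontal axis), of every measured gene in 9 lists of relatives and targets of the 10 factors (rows), with filled points for genes at an adjusted p under 0.05 and a bar at each list's median. Genes repressed by BACH2 have no filled point, and Cd80 (1.23) lies farthest to the right.

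Targets of FOXO1 split in both directions. Their median change was 0.12 over 15 measured genes, of which 4 rose, 3 fell and 8 did not pass. Ccr7, a chemokine receptor that guides lymphocytes to lymph nodes, read 10.06, 9.99 and 10.05 in CRE-ERT2 arrays, against 9.15, 9.03 and 9.08 in ERT2 arrays, and rose 1.93-fold (adjusted p = 6.37e-06). The stress gene Trp53inp1 rose by 0.47 (adjusted p = 0.00185) and the death gene Bcl2l11, which encodes BIM, by 0.44 (adjusted p = 0.00326). Rag2 fell by 0.53, while its partner Rag1 changed by -0.11 and did not pass (adjusted p = 0.614). All 4 of Ccr7, Trp53inp1, Bcl2l11 and Rag2 passed whichever array was left out, but Rag2 did not pass in the test over all probe sets, as given above. The insulin receptor substrate gene Irs2 (0.42) also rose, and the interleukin-7 receptor gene Il7r (-0.43) and the sphingosine phosphate receptor gene S1pr1 (-0.33) fell. Irs2 and Il7r passed whichever array was left out, and of these Irs2 lost its call with all probe sets tested (adjusted p = 0.0917). S1pr1 passed only without ERT2 replicate 1 (adjusted p up to 0.114 in the other 5 fits, without CRE-ERT2 replicate 3). Its means of 7.32 and 7.65 in CRE-ERT2 and ERT2 arrays lay below the array medians of 7.90 to 7.98.

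Genes repressed by IKAROS and AIOLOS in pre-B cells had a median change of 0.02 over 8 measured, and 0 rose, 3 fell and 5 did not pass. The hexokinase gene Hk2 fell by 0.58 (adjusted p = 0.000637), the glucose transporter gene Slc2a1 by 0.57 (adjusted p = 0.000751), and Myc, given above, by 0.35. Igll1 (0.06) and the cyclin genes Ccnd2 (0.10) and Ccnd3 (-0.01) did not pass. Of 8 genes of the plasma cell programme, 1 rose and 1 fell. Sdc1, the plasma cell surface proteoglycan syndecan-1, fell by 0.44 (adjusted p = 0.0209) and Mzb1, an endoplasmic reticulum protein of B cells, rose by 0.37 (adjusted p = 0.0314), while Xbp1 (0.01) did not pass. Sdc1 lost its call without CRE-ERT2 replicate 3 (adjusted p = 0.0884) or ERT2 replicate 1 (0.0959), and Mzb1 without CRE-ERT2 replicate 1 (0.111), CRE-ERT2 replicate 3 (0.154) or ERT2 replicate 1 (0.115).

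Over all 9 lists, 27 of 108 distinct genes passed (25%), 17 higher and 10 lower in CRE-ERT2 arrays, with a median change of 0.05. Of all genes tested, 4.58% passed (2.30% higher and 2.28% lower). The lists were chosen with earlier results of these data known, so the 25% describes the lists and is no test. Of these 27, 15 passed whichever array was left out, and 12 passed when all probe sets were tested. These 12 were Bcl2, Bcl2l11, Ccr7, Cd80 (by its brighter probe set), Emb, Flt3, Hk2, Id2, Il7r, Notch1, Slc2a1 and Trp53inp1, all of which also passed whichever array was left out. The count was 18 without ERT2 replicate 1 and 17 without CRE-ERT2 replicate 1 or without CRE-ERT2 replicate 3.

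**Figure D5:**
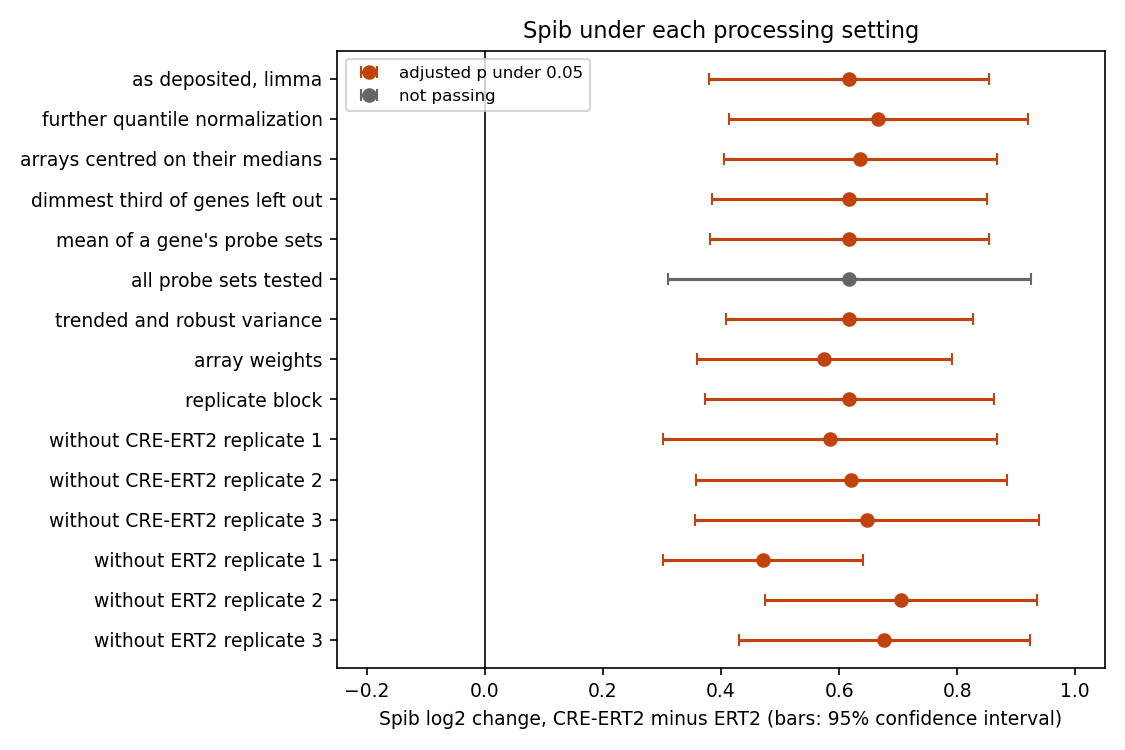
Change of Spib in log2 units, CRE-ERT2 minus ERT2 (horizontal axis), with its 95% confidence interval under each processing setting (rows). Every interval lies above 0, the estimates run from 0.47 to 0.70, and the grey point marks the setting with all probe sets tested, where the adjusted p was 0.119.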

How the data were processed

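Biotin-labelled total RNA of 6 samples was measured on Affymetrix arrays, per the labels' protocols. In the deposited table each value is a log2 expression level of 1 probe set on 1 array. The submitters' processing notes list RMA and Partek 6.5 but not what each was used for, and the log2 scale was read from the range of the values. Neither detection calls nor scan dates were used, so dim signal and batches could not be tested.

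Of 35556 probe sets, 21789 had exactly 1 gene in the platform annotation. Each gene was represented by its brightest probe set over the 6 arrays, for 19938 genes in all, with no filter or further normalization. Pearson correlations between arrays were 0.991 to 0.996 and no 2 arrays were duplicates. The groups were compared in R 4.3.3 by a two-sided test in limma 3.58.1, with lmFit, eBayes and group as the only term, Benjamini-Hochberg adjustment over all genes and a threshold of 0.05. The fit was run first on simulated arrays with independent normal noise, a setting that does not test how it behaves with correlated arrays.

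The 10 factors and the lists around them were chosen with earlier results of these data known. All 10 are named. From each list up to 4 passing genes with the largest change are named, or those with the smallest p up to 2, and other list genes were named after their values were seen. For Spib, the 2 genes with the smallest root mean square difference in profile are named. Of 189 list names 173 were measured, and the rest were not analysed here. Promoter windows were read from RefSeq by gene symbol, and Ikzf3 was not in that table. Alternatives were a further quantile normalization, centring on medians, a dimness filter, the mean of probe sets, all probe sets, a trended robust variance, weights for arrays, a block for the replicate number and leaving out each array.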

Additional observations from a re-analysis of the deposited data

How the results depend on the processing

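Spib kept its direction under all 14 alternatives and passed in 13. With all probe sets tested its change was 0.62 with an adjusted p of 0.119, so 0 of the 10 factors passed there, in a test that adjusts over more features and draws the variance from all of them. The other 9 factors did not pass under any of the 14 alternatives. Of these, Foxo1, Ikzf3, Irf4, Irf8 and Bcl6 kept the sign of their change throughout, and Pax5, Ebf1, Ikzf1 and Bach2, whose changes were near 0, did not. Leaving out an array gave Spib changes of 0.47 to 0.70.

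Across all genes 914 passed, against 298 probe sets with all probe sets tested, 1544 genes with a trended, robust variance, 589 with the replicate block, and 453 to 979 with an array left out. The distinct list genes passing were 27, 12 with all probe sets tested and 17 to 25 with an array left out. The causes were not tested. The replicate numbers were not taken as pairs, since same-numbered arrays deviated from their group means with correlations of -0.11, -0.37 and -0.07. The 6 correlations between arrays of different number ran from -0.32 to 0.45. CRE-ERT2 replicate 1 with ERT2 replicate 2 (0.45) and CRE-ERT2 replicate 2 with ERT2 replicate 3 (0.40) were positive. So was CRE-ERT2 replicate 3 with ERT2 replicate 1 (0.18), and the rest were negative. These positive pairs together match every array once. Deviations from a group mean cancel within the group, however, so each array must have correlations of both signs with the other group. The pattern is therefore a description only. No such matching was fitted, since the labels give none, and whether those arrays share a batch was not tested. With the replicate block the change of Spib was 0.62 (adjusted p = 0.00974).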
